A study of Saccharomyces cerevisiae with 6 samples.

Results

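Aminoacyl-tRNA synthetases are the enzymes that load each tRNA with its amino acid. The mRNAs of 36 budding yeast genes for these enzymes or their subunits were followed among 6603 open reading frames. The genes were chosen by the annotated function of their products. The list was proposed with the assembly and total RNA values of the same 6 libraries known, so fold changes and calls between those groups are given as a description, and no list-wide test was made. It holds 22 genes of cytosolic enzymes, among them GRS2, a paralogue of GRS1, and 14 genes of mitochondrial enzymes. All 36 averaged 10 or more normalised reads over the libraries, so every one entered the fit.

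The RNA came from untreated log-phase cells of the haploid laboratory strain BY4741, by extraction with phenol and chloroform. In the assembly group (3 libraries), RNA had been placed at 150 mM NaCl, 10% polyethylene glycol and 1 mM MgCl2, at 150 µg/mL of total yeast RNA per the series' design text, and the self-assembled RNA was pelleted, while the total RNA group (3 libraries) served as the reference. The labels name the same buffer for both groups, so the handling of the total RNA is not settled. All libraries were depleted of ribosomal RNA. The labels do not say whether libraries of a group stem from different cultures or reactions, and the p-values therefore reflect the spread among these samples alone, possibly technical. The assemblies are a test-tube system made from extracted RNA, without cells. The libraries held between 8749240 and 10531980 reads on open reading frames. Total RNA libraries 1 and 2 were unusually alike, with a chi-square of 1.57 per degree of freedom where the other pairs within a group gave 12.1 to 59.8. They still differed by more than counting noise and were kept as 2 samples. Averaging them into 1 left 13 synthetases called higher and 11 lower, against 2204 and 2207 of all 5670 genes tested. The calls of MSK1, GRS1 and SES1 were then lost (limma, adjusted p = 0.0750, 0.0709 and 0.100). The strain's deleted markers LEU2 and MET17 had 0 reads in all libraries and URA3 at most 0.862 normalised reads. HIS3, which is only partly deleted in this strain, had 159 to 293. STE2 and BAR1, genes of MATa cells, had at least 1263 normalised reads, and the MATalpha genes MF(ALPHA)1, MF(ALPHA)2 and STE3 had at most 35.0.

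A synthetase activates its amino acid with ATP and transfers it to the end of the matching tRNA, which the elongation factor then carries to the ribosome. The enzymes fall into class I, built on a Rossmann fold, and class II, built on an antiparallel sheet. Yeast translates in the cytosol and in mitochondria, and most amino acids have a separate nuclear gene for each compartment. The genes ALA1, GRS1, HTS1 and VAS1 each give rise to both forms.

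Even the most alike synthetase genes shared only short runs of identical bases. No synthetase had a coding sequence that matched another gene at 95% identity or more over at least 50% of its length, and none overlapped another RefSeq gene. Open reading frames of the table that RefSeq does not list were not checked for overlap. The closest pairs were GRS1 with GRS2 (70.2% identity over 980 aligned nt) and the cytosolic arginine enzyme gene YDR341C with its mitochondrial counterpart MSR1 (66.8% over 1417 nt). Their most alike stretches of 60 nt without gaps are shown because the GRS pair is compared below. They run 5′ to 3′ on the coding strand, with capitals at positions that differ between the 2 genes (RefSeq build R64).
GRS1, chrII:483073-483132, minus strand: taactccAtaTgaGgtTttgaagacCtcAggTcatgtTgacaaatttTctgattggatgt
GRS2, chrXVI:703700-703759, minus strand: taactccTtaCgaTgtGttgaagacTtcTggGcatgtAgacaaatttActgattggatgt
YDR341C, chrIV:1152727-1152786, minus strand: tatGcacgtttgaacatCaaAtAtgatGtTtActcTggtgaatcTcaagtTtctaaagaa
MSR1, chrVIII:285763-285822, minus strand: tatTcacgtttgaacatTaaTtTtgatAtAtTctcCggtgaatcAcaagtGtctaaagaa
Within these stretches 9 positions differed between GRS1 and GRS2 and 10 between YDR341C and MSR1. The longest run of identical bases anywhere in the coding sequences was 17 nt for the first pair and 15 nt for the second.

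In total RNA, the mRNAs of the cytosolic enzymes were far more abundant than those of the mitochondrial ones. Levels between genes are given as normalised reads per kb of coding sequence. The cytosolic genes other than GRS2 ranged from 1398 ± 23.7 for YNL247W (CRS1), the cysteine enzyme, to 8853 ± 299 for ILS1, the isoleucine enzyme (mean ± SD, n = 3 libraries). The mitochondrial genes ranged from 98.7 ± 12.4 for SLM5, the asparagine enzyme, to 266.1 ± 20.7 for MSK1, the lysine enzyme (n = 3). GRS2 had 133.4 ± 9.87 per kb (n = 3), within the range of the mitochondrial genes and unlike GRS1 with 3660 ± 199 (n = 3). For the 14 amino acids with a separate gene in each compartment, which make 15 gene pairs since the cytosolic phenylalanine enzyme has 2 subunits, the cytosolic mRNA exceeded the mitochondrial one by 12.7-fold (arginine) to 51.4-fold (isoleucine), with a median of 23.0-fold. These are levels in total RNA and involve no comparison with the assemblies.

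**Figure D1:**
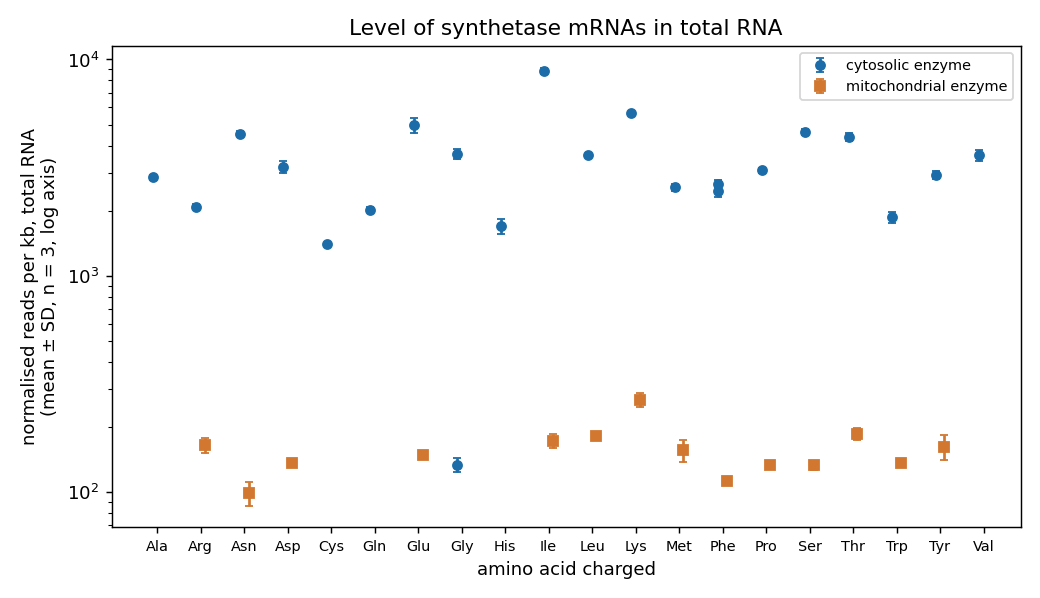
Level of each synthetase mRNA in total RNA, as normalised reads per kb of coding sequence on a log axis, by the amino acid charged (points, mean of 3 libraries, bars, SD). Cytosolic genes lie between 1398 and 8853, except GRS2 at 133.4, the lower of the 2 glycine points, and mitochondrial genes lie between 98.7 and 266.1.

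The comparison of assemblies with total RNA asks which mRNAs were over-represented in the pellet, always relative to the median gene. The synthetase mRNAs did not move as a block. Of 36, limma called 14 higher in assemblies, 13 lower and 9 neither way (adjusted p from 3.56e-07 to 0.0301 for the called ones and from 0.119 to 0.944 for the rest). Over all 5670 genes tested, 82.2% were called, 41.3% higher and 40.8% lower. The median log2 fold change was 0.14 for the 36 genes and 0.02 for all genes tested. In 29 of the 36 the assembly values lay entirely above or below the total RNA values, against 85.3% of all genes. These mRNAs made up 2.38% ± 0.0175 of the reads of assemblies against 2.05% ± 0.0078 for total RNA (n = 3 libraries each, SD), with no overlap of groups. Much of this difference lay in ILS1 alone, with 0.576% against 0.36%. The mitochondrial genes made up 0.0468% ± 0.0049 against 0.0494% ± 0.00035, and their groups overlapped.

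**Figure D2:**
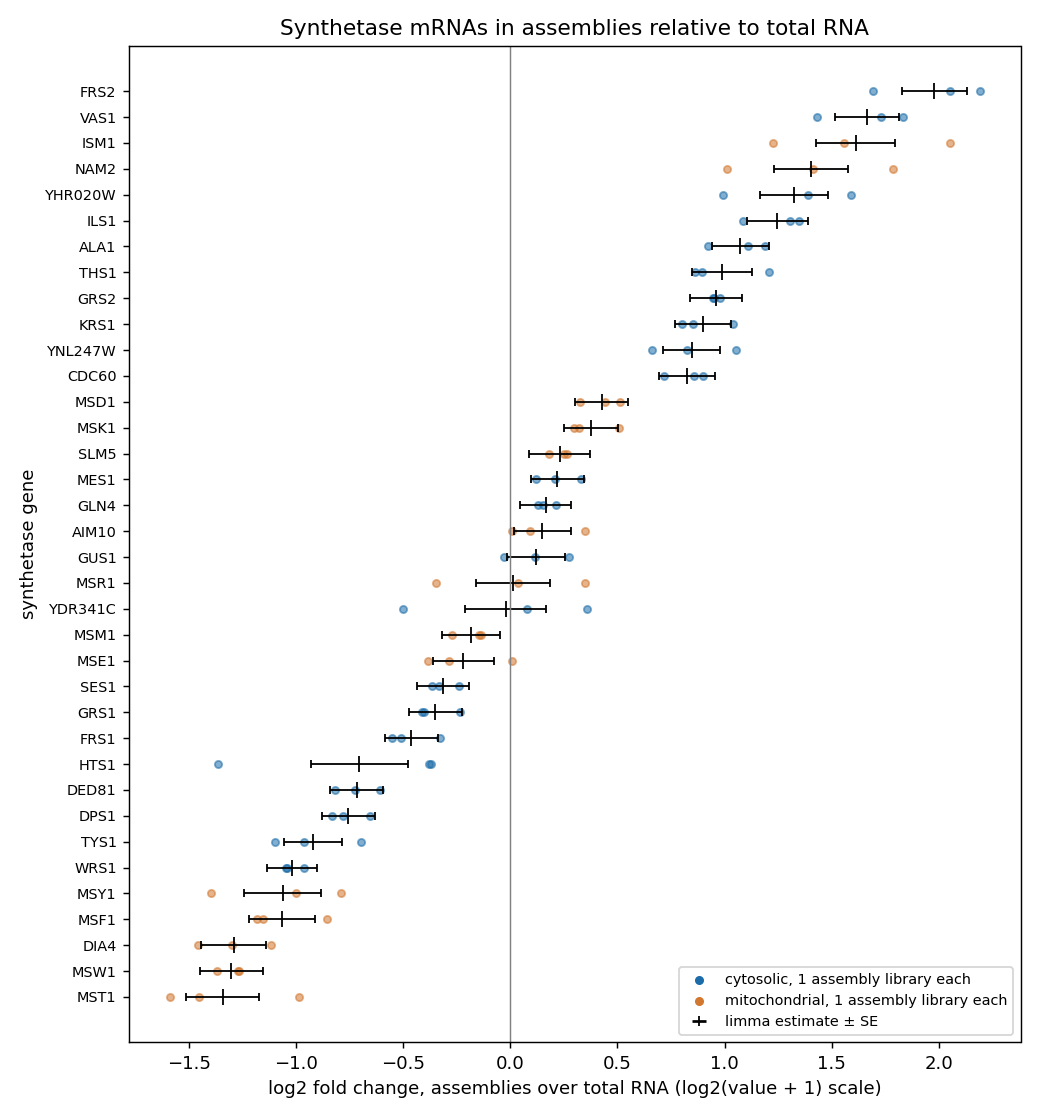
The log2 fold change of each synthetase mRNA in assemblies over total RNA, on the log2(value + 1) scale. Points are single assembly libraries against the mean of the 3 total RNA libraries, and black marks are the limma estimate with its SE, which range from 1.98 for FRS2 to -1.34 for MST1. HTS1 and YDR341C have 1 assembly library far below the other two.

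Among the 22 genes of cytosolic enzymes, 10 mRNAs were called higher, 8 lower and 4 neither way, near the 41.3% higher and 40.8% lower of all genes tested. The median log2 fold change of the cytosolic list was 0.19 (0.137, 0.285 and 0.302 for assembly libraries 1, 2 and 3 alone). FRS2 (YFL022C), the alpha subunit of the phenylalanine enzyme, stood highest. Values per library are listed in the order 1, 2, 3. FRS2 had 12036, 15429 and 17002 normalised reads in assemblies against 3650, 3545 and 3982 in total RNA, and its log2 fold change was 1.98 (SE 0.15). VAS1 (YGR094W), the valine enzyme of cytosol and mitochondria, had 32257, 39705 and 42640 in assemblies and 11450, 11701 and 12803 in total RNA, a log2 fold change of 1.66 (SE 0.15). In both genes every assembly library lay above every total RNA library, and assembly library 1 was the lowest of the 3. YHR020W, the proline enzyme, followed with 12650, 16671 and 19108 against 6211, 6326 and 6533 (log2 fold change 1.32, SE 0.16).

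ILS1 (YBL076C) was the most abundant synthetase mRNA in either group, per kb and in reads. It had 60484, 72443 and 70481 normalised reads in assemblies and 27919, 27967 and 29608 in total RNA, with a log2 fold change of 1.25 (SE 0.14). It made up 0.576% ± 0.0146 of the reads of assemblies against 0.36% ± 0.0031 for total RNA (n = 3 libraries each, SD). Further cytosolic mRNAs called higher were ALA1 (alanine, log2 fold change 1.07), THS1 (threonine, 0.99), GRS2 (glycine, 0.96), KRS1 (lysine, 0.90), YNL247W (cysteine, 0.85) and CDC60 (leucine, 0.82). All 10 had assembly values above every total RNA value, where 85.3% of all genes tested had groups without overlap in either direction.

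At the other end of the cytosolic list stood the tryptophan and tyrosine enzymes, which have the shortest coding sequences of that list. WRS1 (YOL097C) had 1244, 1174 and 1176 normalised reads in assemblies and 2393, 2302 and 2585 in total RNA, and its log2 fold change was -1.02 (SE 0.12). TYS1 (YGR185C) had 2129, 1768 and 1609 against 3426, 3317 and 3603, with a log2 fold change of -0.92 (SE 0.13). Neither gene overlapped between groups.

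The aspartate enzyme gene DPS1 (YLL018C) had 3105, 3395 and 3002 normalised reads in assemblies and 5184, 5111 and 5735 in total RNA (log2 fold change -0.75, SE 0.12). The asparagine enzyme gene DED81 (YHR019C) had 4964, 4580 and 4293 against 7639, 7338 and 7703 (log2 fold change -0.71, SE 0.12). The histidine enzyme gene HTS1 (YPR033C) was uneven, with 2133, 2148 and 1080 in assemblies against 2638, 2662 and 3041 in total RNA. Its log2 fold change of -0.70 (SE 0.23) was -0.37 without assembly library 3, and it was still called.

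The serine enzyme gene SES1 (YDR023W) had 5419, 4958 and 5080 normalised reads in assemblies against 6276, 6269 and 6642 in total RNA, and its groups did not overlap. Its log2 fold change of -0.31 (SE 0.12) is the called value nearest to 0. That call was lost without assembly library 2 or without any 1 of the 3 total RNA libraries (adjusted p from 0.0712 to 0.106, limma).

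Of the 22 cytosolic genes, 4 were not called in either direction. MES1 (YGR264C) and GUS1 (YGL245W), the methionine and glutamate enzymes, bind the cofactor Arc1 in 1 complex. MES1 had 6273, 6678 and 7256 normalised reads in assemblies and 5581, 5704 and 6035 in total RNA (log2 fold change 0.22, SE 0.12), and it was called higher when assembly library 1 was left out (limma, adjusted p = 0.0184). GUS1 had 10376, 11464 and 12768 against 10184, 10054 and 11535 (0.12, SE 0.14). ARC1 itself, which is not a synthetase, had 5246, 4716 and 5189 against 6008, 5981 and 6081 (-0.26, SE 0.12) and was not called. ARC1 lay below total RNA in all assembly libraries, MES1 lay above, and GUS1 overlapped, all by small amounts. The per-kb ratio of MES1 to GUS1 was 0.552 ± 0.0172 for assemblies against 0.515 ± 0.0208 for total RNA (n = 3 libraries each, SD). The other two uncalled genes were GLN4, the glutamine enzyme (0.17), and YDR341C, the arginine enzyme (-0.02). YDR341C had 4013, 4878 and 2692 normalised reads in assemblies around 3742, 3767 and 3904 in total RNA, and its log2 fold change was 0.22 without assembly library 3.

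Among the 14 genes of mitochondrial enzymes, 4 mRNAs were called higher, 5 lower and 5 neither way, against 41.3% higher and 40.8% lower of all genes tested. The median log2 fold change of the mitochondrial list was -0.09 (-0.131, -0.245 and 0.137 for assembly libraries 1, 2 and 3 alone). ISM1 (YPL040C), the isoleucine enzyme, had 1213, 1525 and 2148 normalised reads in assemblies and 495, 498 and 563 in total RNA, a log2 fold change of 1.61 (SE 0.18). NAM2 (YLR382C), the leucine enzyme, which also takes part in splicing of mitochondrial introns, had 977, 1290 and 1675 against 465, 484 and 506 (log2 fold change 1.40, SE 0.17). Both had non-overlapping groups, and in both assembly library 3 was highest and library 1 lowest.

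The other two mitochondrial mRNAs that were called higher moved much less. MSD1 (YPL104W), the aspartate enzyme, had 336, 364 and 382 normalised reads in assemblies and 269, 259 and 276 in total RNA (log2 fold change 0.43, SE 0.12). MSK1 (YNL073W) had 575, 654 and 566 against 447, 433 and 501 (log2 fold change 0.38, SE 0.13). With equal library totals, MSD1 and MSK1 turned to -0.14 and -0.19 and were not called, and the call of MSK1 was also lost without assembly library 2, total RNA library 1 or total RNA library 2 (limma, adjusted p from 0.0536 to 0.0845).

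The 5 mitochondrial mRNAs called lower fell by 1.06 to 1.34 on the log2 scale. MST1 (YKL194C), the threonine enzyme, was the lowest of all 36, with 129.1, 84.7 and 93.1 normalised reads in assemblies and 238.7, 261.1 and 271.1 in total RNA (log2 fold change -1.34, SE 0.17). MSW1 (YDR268W), the tryptophan enzyme, had 63.3, 59.3 and 63.7 against 155.6, 159.4 and 148.3 (log2 fold change -1.30, SE 0.15). In both, the highest assembly library lay well below the lowest total RNA library.

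DIA4 (YHR011W), a probable mitochondrial serine enzyme, had 81.6, 64.2 and 71.9 normalised reads in assemblies and 188.1, 174.9 and 171.3 in total RNA (log2 fold change -1.29, SE 0.15). MSF1 (YPR047W), the phenylalanine enzyme, had 69.4, 87.1 and 70.7 against 157.9, 156.8 and 161.1 (log2 fold change -1.06, SE 0.15). MSY1, the tyrosine enzyme, had a log2 fold change of -1.06 (SE 0.18). The groups of these 3 genes did not overlap. The 5 uncalled genes were SLM5 (asparagine, 0.23), AIM10 (a putative proline enzyme, 0.15), MSR1 (arginine, 0.01), MSM1 (methionine, -0.18) and MSE1 (glutamate, -0.22), and their groups overlapped. MSE1 was called lower when assembly library 3 was left out (limma, adjusted p = 0.0220, log2 fold change -0.33).

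The values followed coding length. All 6 synthetases with coding sequences of 2600 nt or more (VAS1, CDC60, ILS1, ISM1, ALA1 and NAM2, cytosolic and mitochondrial alike) were called higher, as were 680 of 699 nuclear genes of that length. Their median log2 fold change was 1.32, against 1.64 for those genes. Of the 9 below 1500 nt, 8 were called lower and 0 higher, the exception being SLM5, which was not called. Of 3329 nuclear genes below 1500 nt, 2035 were lower and 655 higher, and the median was -1.06 for the synthetases and -0.74 for those genes. Of the 14 from 1500 to below 2000 nt, 5 were higher and 4 lower, where 497 of 900 nuclear genes were higher and 186 lower (medians -0.0037 and 0.48). Of the 7 from 2000 to below 2600 nt, 3 were higher and 1 lower, namely GRS1, where 450 of 574 nuclear genes were higher and 37 lower (medians 0.22 and 0.94). Spearman's rho between log2 fold change and coding length was 0.758 over the 36 genes, 0.610 over the 22 cytosolic and 0.912 over the 14 mitochondrial ones, and 0.840 over the 35 genes other than FRS2. It was 0.677 over 5502 tested nuclear protein-coding genes. These coefficients are across genes that share libraries, and serve as a description.

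**Figure D3:**
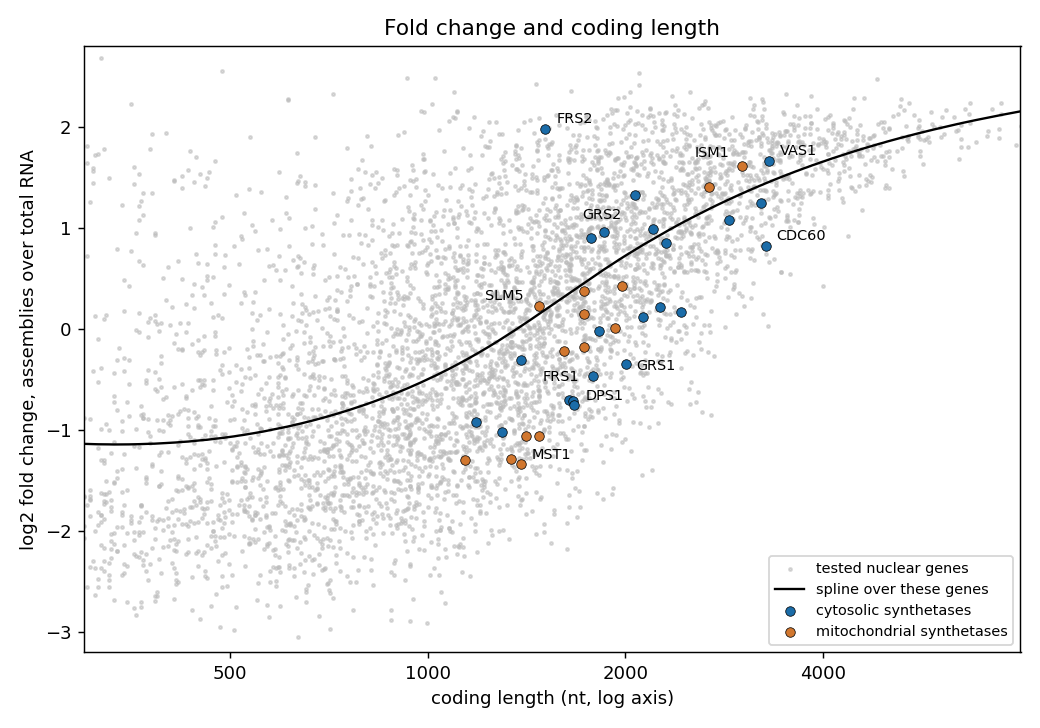
The log2 fold change in assemblies over total RNA against coding length in nt on a log axis, with each dot a gene. Grey dots are tested nuclear protein-coding genes within the plotted range, the line is a spline of log2 length fitted over all 5502 of them, and coloured dots are synthetases, of which 27 lie below the line and FRS2 lies farthest above it.

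Set against genes of like length, most synthetase mRNAs stood low, as did most of the other genes that handle tRNA, given below. The log2 fold change was below the value given by a spline of log2 length over 5502 nuclear genes in 27 of 36 synthetases, 16 of 22 cytosolic and 11 of 14 mitochondrial, against 52.1% of all those genes. The median deviation from the spline was -0.60 for the 36 and -0.04 for all, where the spread of all genes about the spline was 0.919 (residual SD, log2). MST1 lay farthest below (-1.37), followed by DIA4 (-1.25), MSY1 (-1.21), DPS1 (-1.14) and MSF1 (-1.12). FRS2 lay farthest above (1.79), and the next were YHR020W (0.54), KRS1 (0.40) and GRS2 (0.37). CDC60, although called higher, lay 0.62 below the spline.

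When length and GC content were fitted out of each library over the nuclear genes, 4 synthetases were called higher and 20 lower by limma, against 34.0% and 35.1% of all genes. The 4 were FRS2 (1.50), GRS2 (0.42), SLM5 (0.35) and KRS1 (0.31). ALA1 turned to -0.30 and CDC60 to -0.67, both called lower. VAS1, ISM1, NAM2, THS1 and YHR020W dropped to 0.13, 0.29, 0.14, 0.10 and 0.24 and were not called. With the replicate number added as a block to that fit, ISM1 and YHR020W were called higher (limma, adjusted p = 0.0382 and 0.0493). The GC content of the coding sequences ranged from 37.0% for MES1 to 44.4% for DED81, and its Spearman's rho with the log2 fold change was 0.015 over the 36 genes.

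The subunits of a single enzyme parted. The cytosolic phenylalanine enzyme is built from the products of FRS1 (YLR060W, beta subunit, 1788 nt) and FRS2 (alpha subunit, 1512 nt). FRS1 had 3794, 3255 and 3345 normalised reads in assemblies and 4656, 4672 and 4966 in total RNA, with a log2 fold change of -0.46 (SE 0.12), while FRS2, the shorter, rose 3.94-fold. In total RNA the per-kb ratio of FRS2 to FRS1 was 0.927, 0.897 and 0.948 in libraries 1, 2 and 3, and in assemblies it was 3.75, 5.61 and 6.01. The ratio is free of the scaling of libraries, and its groups did not overlap. Of 900 nuclear genes from 1500 to below 2000 nt, 27 (3.00%) had a higher log2 fold change than FRS2.

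FRS2 lies on chromosome VI at 93499 to 95010 on the minus strand and FRS1 on chromosome XII at 260979 to 262766 on the plus strand (RefSeq, build R64, and each span equals the coding length). The neighbours of FRS2 also rose, whereas those of GRS2 and YHR020W, given below, fell although these genes rose. BUD27, whose coding sequence ends 122 bp away on the opposite strand, gave 1.27 on the log2 scale (SE 0.14), and GAT1, which starts 955 bp away on the other side, had 1.98 (SE 0.15). The neighbours of FRS1, REX2 and the ribosomal protein gene RPL22A, had -0.62 (SE 0.16) and -1.74 (SE 0.14). Coding length differs among these neighbours, with 2391 nt for BUD27, 1533 nt for GAT1, 810 nt for REX2 and 366 nt for RPL22A. Nuclear genes from 2000 to below 2600 nt had a median log2 fold change of 0.94. That median was 0.48 from 1500 to below 2000 nt and -0.74 below 1500 nt. The sources used here do not give the strand setting of the authors' counting, and whether reads from neighbouring transcripts enter these values was not tested.

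The paralogues GRS1 and GRS2, whose sequences are shown above, moved in opposite directions as well. GRS1 (YBR121C, 2004 nt, chromosome II at 481364 to 483367) had 5514, 6236 and 5541 normalised reads in assemblies and 7241, 6990 and 7770 in total RNA, a log2 fold change of -0.35 (SE 0.13). That call was lost without any 1 of the 3 total RNA libraries (limma, adjusted p from 0.0624 to 0.0909). GRS2 (YPR081C, 1857 nt, chromosome XVI at 702114 to 703970), the weakly expressed copy, had 478, 489 and 479 against 236, 269 and 238 (log2 fold change 0.96, SE 0.12). The per-kb ratio of GRS2 to GRS1 was 0.0935, 0.0846 and 0.0932 in assemblies and 0.0352, 0.0415 and 0.0330 in total RNA, without overlap. GRS2 ends 143 bp from the end of TEF1, an elongation factor gene on the opposite strand. TEF1 had a mean of 138680 normalised reads in total RNA and fell by 1.46 on the log2 scale. That value is made uncertain by the near-identical copy TEF2. DIB1 (432 nt), 254 bp away on the other side of GRS2, had -1.56 (SE 0.23). The neighbours of GRS1, CBP6 (489 nt) and MRPL36 (534 nt), had -2.06 (SE 0.21) and -0.39 (SE 0.16).

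DED81 (141894 to 143558, minus strand) and YHR020W (143996 to 146062, plus strand) are neighbours on chromosome VIII, with 437 bp between their starts, and are transcribed away from each other. Their mRNAs went opposite ways (-0.71 and 1.32). The per-kb ratio of YHR020W to DED81 was 2.05, 2.93 and 3.59 in assemblies and 0.655, 0.694 and 0.683 in total RNA. The coding sequence of YHR020W has 2067 nt and that of DED81 has 1665 nt, with similar GC content (43.4% and 44.4%). The neighbour of YHR020W on its other side, RPS27B (249 nt), had -2.30 (SE 0.15). That of DED81, ARG4 (1392 nt), had -1.18 (SE 0.20).

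**Figure D4:**
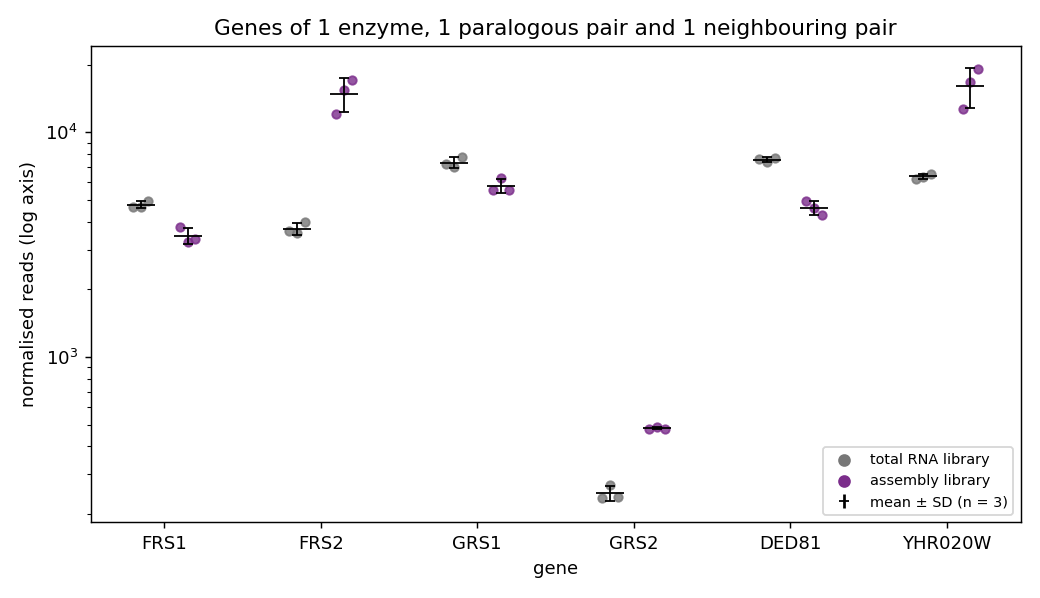
Normalised reads per library, on a log axis, of FRS1 and FRS2 (subunits of 1 enzyme), GRS1 and GRS2 (paralogues) and DED81 and YHR020W (neighbours). Points are libraries, bars are mean ± SD (n = 3), and in each pair 1 gene is lower and the other higher in assemblies, with no overlap between groups for any of the 6 genes.

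Enzymes for the same amino acid in the 2 compartments often differed. In 11 of 15 pairs the mRNA with the longer coding sequence had the higher log2 fold change, and in 10 the cytosolic one did. The pairs are not all separate, since FRS1 and FRS2 were both set against MSF1. Some were close, with YDR341C and MSR1 at -0.02 and 0.01, both uncalled. The lysine and serine pairs differed by only 45 and 48 nt in length. The widest gap after FRS2 and MSF1 was for threonine, where THS1 (2205 nt) had 0.99 and MST1 (1389 nt) had -1.34. Isoleucine and leucine enzymes are long in both compartments, and all 4 mRNAs were called higher, 1.25 and 1.61 for ILS1 and ISM1 and 0.82 and 1.40 for CDC60 and NAM2, the mitochondrial value being larger in both. Tryptophan and tyrosine enzymes are short in both, and all 4 were called lower. For asparagine and aspartate the cytosolic mRNAs DED81 and DPS1 were called lower while SLM5 was not called and MSD1 was higher. Of class I genes 6 of 17 were called higher and 4 lower, and of class II genes 8 of 19 were higher and 9 lower. Of all genes tested 41.3% were higher and 40.8% lower. The median coding length was 2127 nt for class I and 1731 nt for class II, so the counts do not separate class from length.

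Other genes that handle tRNA were taken from a list of 26, covering charging cofactors, tRNA ends and splicing, export, hydrolysis, elongation factors and the sensing of uncharged tRNA. Of these, 8 were called higher and 12 lower, against 41.3% and 40.8% of all genes tested. Their median log2 fold change was -0.29, against 0.02 for all genes tested, and their median coding length was 1386 nt against 1248 nt. Like the synthetases, most lay below the length spline, 19 of 26 (73.1%, median deviation -0.65). With length and GC content fitted out, 6 of the 26 were called higher and 14 lower, against 34.0% and 35.1% of all genes in that fit. By role and without that fitting, 2 of 5 charging cofactors were higher and 2 lower. The counts were 1 and 4 of 8 genes for ends and splicing, 2 and 1 of 4 for export, 1 and 2 of 3 for hydrolysis, and 2 and 0 of 3 for sensing. GCN1 and GCN2, which sense uncharged tRNA through a domain of Gcn2 that resembles the histidine enzyme, stood highest. GCN1 (8019 nt) had 42952, 55802 and 58538 normalised reads in assemblies and 12760, 13234 and 12690 in total RNA (log2 fold change 2.01, SE 0.15). GCN2 (4980 nt) had 4365, 5742 and 6021 against 1369, 1387 and 1390 (1.95, SE 0.14).

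The lowest of that list were PTH2 and DTD1, which code for a peptidyl-tRNA hydrolase and a D-aminoacyl-tRNA deacylase. PTH2 (627 nt) had 213.2, 165.8 and 113.2 normalised reads in assemblies against 809, 769 and 904 in total RNA (log2 fold change -2.37, SE 0.20), and DTD1 (453 nt) had 60.9, 52.0 and 29.5 against 203.9, 202.5 and 248.9 (-2.23, SE 0.24). All 3 elongation factor genes, TEF1, TEF2 and mitochondrial TUF1, were called lower (-1.46, -1.20 and -0.74). TEF1 and TEF2 have nearly the same coding sequence, so their separate values are uncertain. Synthetase and partner mRNAs spanned -2.37 to 2.01 on the log2 scale.

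The scaling of the libraries bears on directions near 0. With equal library totals, the log2 fold change of the median gene shifted by -0.56. In that setting 12 synthetases were called higher and 21 lower, against 1584 and 3045 of all 5670 genes. Of all calls, 34.2% were higher against 50.3% with the deposited scaling. MES1, GUS1 and GLN4 were then called lower (-0.35, -0.45 and -0.40), as they were after quantile normalisation (-0.33, -0.46 and -0.41). YDR341C was called lower under both scalings (-0.59 and -0.64, limma, adjusted p = 0.0198 and 0.0161). Quantile normalisation gave 16 synthetases higher and 17 lower, against 2406 and 2103 of all 5670 genes. SLM5 (0.79) and AIM10 (0.49) were among the higher. FRS2, GRS2, KRS1, FRS1, DED81, DPS1, HTS1, TYS1, WRS1, MST1, MSW1, DIA4, MSF1 and MSY1, 14 genes, kept their direction and their call under all 18 alternatives run. In the authors' deposited table the ratio of group means was 3.98 for FRS2 and 0.398 for MST1.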

How the data were processed

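For each open reading frame, the deposited file holds a signal, normalised reads, for 3 assembly and 3 total RNA libraries, and the authors' fold change, a ratio. The submitters' processing notes name FastQC, Trimmomatic 0.32, Bowtie 0.12.7, HTSeq, DESeq 1.22.1 and build R64. Strand, multimapping and annotation settings do not appear in the sources used here. All nonzero values (100%) were whole multiples of 1 read within a tolerance of 0.01, so the deposited signal is a read count over 1 size factor per library and carries no information on RNA amount.

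Limma 3.58.1 (R 4.3.3, empirical Bayes trend, two-sided, Benjamini-Hochberg over all genes, threshold 0.05) was run on log2(value + 1) for 5670 genes with a mean of at least 10. Fold changes are on that scale, which understates changes of low genes. EdgeR 4.0.16 and DESeq2 1.42.0 on recovered reads were alternatives. Coding lengths (without untranslated regions), GC content and positions came from RefSeq R64, which matched 5916 of the table's identifiers. The length spline had 4 degrees of freedom.

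Members and lists were chosen with earlier results of these data known. Values per library are given for the 4 highest and 4 lowest genes of each compartment, GRS1, GRS2, FRS1, FRS2, MES1, GUS1, ARC1, genes called against most of their compartment, and the 2 highest and 2 lowest partner genes. YDR341C, TEF1, TEF2, TUF1, the neighbouring genes and the DED81 and YHR020W pair were added after their values were seen, and ALA1, THS1, KRS1, YNL247W, CDC60 and others are given by fold change alone. Groups and replicate numbers came from the sample titles.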

Additional observations from a re-analysis of the deposited data

How the results depend on the processing

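Pseudocounts of 0.5 and 5, no filter on low values and a mean of at least 50 left all 36 synthetases on the same side of the threshold. Whether the replicate number pairs the libraries is not settled. The correlation of deviations was 0.078, 0.17 and 0.28 for numbers 1, 2 and 3. Between libraries of unlike number it ranged from -0.26 to 0.22. With the replicate number as a block, 14 synthetases were higher and 12 lower, SES1 being lost (limma, adjusted p = 0.0627). Of all 5670 genes, 2375 were higher and 2350 lower in that fit. EdgeR called 14 synthetases higher and 15 lower (cytosolic median 0.10) and DESeq2 14 and 13. Over all 5670 genes edgeR called 2232 higher and 2471 lower and DESeq2 2302 and 2281. MSR1 turned to -0.058 with edgeR and to -0.016 with total RNA libraries 1 and 2 averaged, and YDR341C to 0.011 with DESeq2, with no call. The cause was not tested for any of these changes.

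With equal library totals 21 synthetases were called lower and 4 partner genes higher, where 3045 of all 5670 genes were lower and 1584 higher. The medians were -0.37 (cytosolic) and -0.65 (mitochondrial). GLN4, GUS1, MES1, MSR1, SLM5, MSD1, MSK1 and AIM10 turned to -0.40, -0.45, -0.35, -0.55, -0.33, -0.14, -0.19 and -0.41. After quantile normalisation the medians were -0.37 and 0.19, and GLN4, GUS1, MES1, MSE1 and MSM1 were -0.41, -0.46, -0.33, 0.17 and 0.13.

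With length and GC content fitted out, 4 synthetases were higher and 20 lower (6 and 20 with the replicate block added). Of 5502 nuclear genes, 1869 were higher and 1931 lower (1922 and 2002 with the block). The synthetase medians were -0.48 (cytosolic) and -0.42 (mitochondrial) in both fits. In both, ALA1, YNL247W, GLN4, GUS1, ILS1, CDC60, MES1, MSR1, MSD1, MSK1 and AIM10 were -0.30, -0.044, -0.73, -0.79, -0.18, -0.67, -0.49, -0.66, -0.21, -0.24 and -0.17.

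Leaving out 1 library at a time gave 13 to 15 synthetases higher and 11 to 14 lower, and medians of 0.17 to 0.23 (cytosolic) and -0.18 to 0.021 (mitochondrial). YDR341C ranged from its lowest to its highest value as -0.21 to 0.22, and MSR1 as -0.15 to 0.19. Partner genes gave 7 to 8 higher and 12 to 14 lower. The weakest synthetase in assemblies, MSW1, had a mean of 62.1 normalised reads in assemblies, so counting error limits single values of the mitochondrial genes most.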
